A study of Mus musculus with 9 samples.

Results

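The matrix metalloproteinases (MMPs), the ADAMTS proteases with their ADAMTS-like relatives, and the tissue inhibitors of metalloproteinases (TIMPs) were followed in adult olfactory bulb stem cells (aOBSCs) grown as floating neurospheres. The members were taken by symbol, as every probe set annotated to a single Mmp, Adamts, Adamtsl or Timp gene. They were 42 genes read by 78 probe sets, out of 18193 genes with a single symbol and 45037 probe sets on the array. Of these genes, 18 encode MMPs (29 probe sets), 15 ADAMTS proteases (28 probe sets), 5 ADAMTS-like proteins (8 probe sets) and 4 TIMPs (13 probe sets). Mmp15, Mmp21, Mmp25, Mmp27, Mmp28, Adamts2, Adamts13, Adamts14 and Adamts17 were not analysed here.

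Neurospheres were kept for 7 days, and the conditions differed only in how often FGF-2 and EGF (20 ng/ml each) were supplied. Ctr cultures received both factors daily, C2 cultures at intervals of 2 days and C4 cultures at intervals of 4 days. The paper states that cells grew with daily factors until passage 3. They then stayed in their condition for 2 further passages before gene expression was measured, so the differences are not those of 7 days alone. RNA was collected after 1 day without fresh factors in C2 and after 3 days in C4, and 3 Affymetrix Mouse Genome arrays, labelled as biological replicates, were hybridised per condition. No transgene or deletion is named for these cultures in the sources used here. The cultures for the arrays came from mice of 7 months and of 1 year and 3 months, adult CD1 or C57Bl/6 mice were used for such cultures, and which mouse each array came from is not given in the sources used here. The comparisons address which transcripts for matrix proteases and for their inhibitors differ when the factors are supplied less often, and the C2 and C4 comparisons share the same Ctr arrays.

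MMPs are zinc proteases that are made as inactive precursors and together can cut most proteins of the extracellular matrix. ADAMTS proteases are secreted relatives, several of which cut the lecticans (aggrecan, brevican, neurocan and versican), the chondroitin sulphate proteoglycans that fill the extracellular space of the brain, whereas ADAMTS-like proteins have the same matrix-binding modules but no protease domain. TIMPs bind to the active site of MMPs and block it, so that proteolysis by MMPs around a cell depends on the amounts of both. In the adult brain these families act in neuroblast migration, myelination and repair.

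All values are GCRMA values on the log2 scale, so that a difference of 1 is a change of 2-fold. Between 34.8 and 35.8% of the probe sets of each array stood at the common lowest value of 2.27, and a probe set with all condition means under 4 is called near the floor. Values also repeated exactly above the floor: a single value was shared by at least 5 of the 9 arrays in 5 of the 26 member probe sets above the floor and in 11% of all 18593 probe sets above it, and differences of such probe sets are not measured well. Where several probe sets read a gene, the one with the highest mean is given unless another is named, and it is called the representative probe set. The conditions were compared with limma on all 9 arrays, with Benjamini-Hochberg adjustment over all 45037 probe sets, and a probe set was called when its adjusted p was under 0.05. No pair of arrays was identical, and 3 arrays per condition limit how small a difference can be called. Because whole neurospheres were measured, fewer cells of a type and less RNA per cell cannot be told apart.

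Most of the protease genes were near the floor, and all 4 inhibitors were above it. Above the floor were 1 of 18 MMP genes (Mmp16), 6 of 15 ADAMTS genes (Adamts1, Adamts4, Adamts6, Adamts9, Adamts10 and Adamts12), 1 of 5 ADAMTS-like genes (Adamtsl3) and 4 of 4 TIMP genes, which makes 12 genes and 26 probe sets. In C4 against Ctr, 11 of the 78 member probe sets were called (14.1%), against 6.29% of all probe sets. All 11 were among the 26 above the floor (42.3%), each of which had a mean of at least 4 over all arrays, as had 18277 probe sets of the array, of which 15.0% were called. The 6 probe sets that rose (3.78% of all probe sets rose) were all of Timp3 and Timp4, and the 5 that fell (2.51% of all) were those of Timp1, Adamts1, Adamts4 (both probe sets) and Adamtsl3. By gene, 6 of 42 were called, against 9.20% of all genes: Timp3 and Timp4 rose, and Timp1, Adamts1, Adamts4 and Adamtsl3 fell. The share of called members was above the background at a similar level, but 12 of the 26 probe sets above the floor read the 4 TIMP genes and made 7 of the 11 calls, and the members were chosen with earlier results known, so this share is given as a description. In C2 against Ctr, 4 probe sets were called, against 1.70% of all probe sets, and these were 15.4% of the 26 above the floor, against 4.04% of all with a mean of at least 4. Both probe sets of Timp4 rose (1.13% of all rose), and those of Adamts1 and 1 of 6 of Timp2 fell (0.577% of all fell). In C4 against C2, 9 were called, against 5.25% of all probe sets, and these were 34.6% of the 26 above the floor, against 12.5% of all with a mean of at least 4. The 4 probe sets of Timp3 and 1 of Timp2 rose (2.86% of all rose), and those of Timp1, Timp4 (both probe sets) and Adamtsl3 fell (2.39% of all fell). The median difference over all 78 member probe sets was 0 in each comparison, as it was over all probe sets. A difference of at least 1 was reached by 5 member probe sets in C4 against Ctr (0.693% of all probe sets), by 0 in C2 against Ctr (0.0844% of all) and by 6 in C4 against C2 (0.673% of all).

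**Figure D1:**
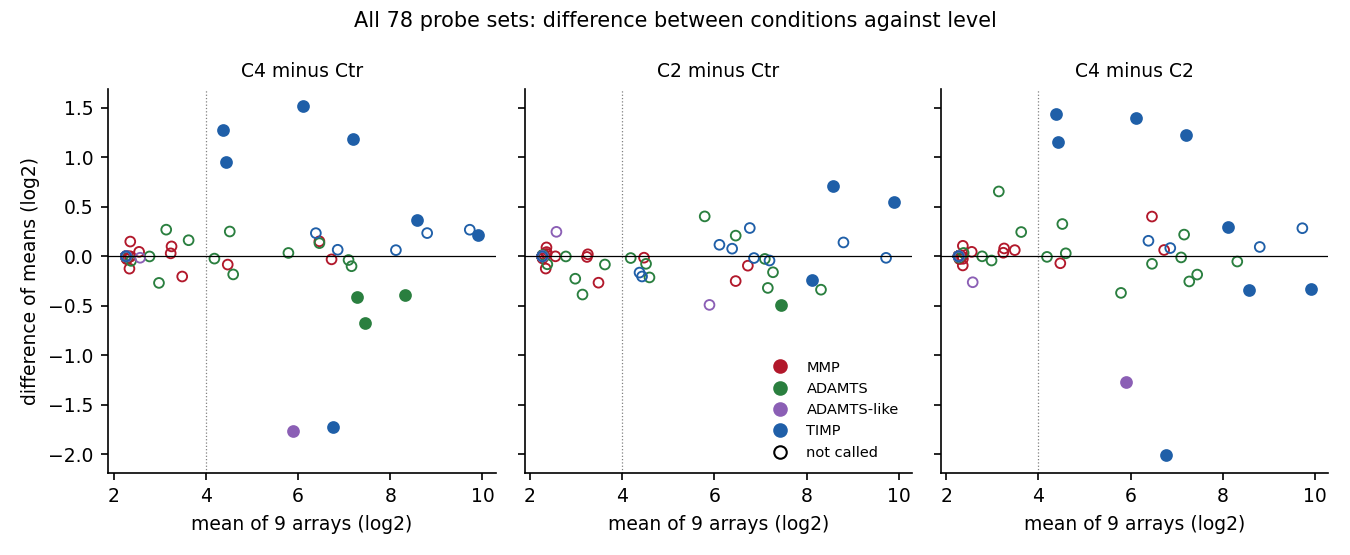
Difference between condition means (log2, vertical axis) against the mean of all 9 arrays (log2, horizontal axis) for each of the 78 member probe sets, with the family by colour, filled circles for an adjusted p under 0.05 and a dotted line at a mean of 4. The filled circles to either side of 0 in C4 minus Ctr are 6 of TIMP genes above 0 and 5 below 0, and the MMP probe sets, mostly left of the dotted line, lie close to 0.

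The TIMP genes diverged: Timp1 fell by 1.73 in C4 while Timp3 rose by 1.18, and Timp4 rose most in C2. Timp2 was called on a single probe set only, though some alternatives of the processing called others. The 250 bases before the start of each TIMP gene are shown because these inhibitors moved in different directions under the same change in factor supply. The sequences are those of RefSeq on GRCm38.p6, 5′ to 3′ in the direction of transcription, and 27 of the 42 member genes matched the promoter table. Capitals mark the letters AGGAAG on either strand, a core bound by PEA3 and other ETS factors, which act downstream of ERK signalling.
Timp1, chrX:20869916-20870165, plus strand: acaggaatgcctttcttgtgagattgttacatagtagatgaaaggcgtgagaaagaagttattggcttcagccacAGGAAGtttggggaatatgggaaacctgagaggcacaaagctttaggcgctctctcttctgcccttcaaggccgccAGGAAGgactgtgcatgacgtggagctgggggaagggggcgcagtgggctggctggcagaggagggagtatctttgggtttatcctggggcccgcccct
Timp2, chr11:118355412-118355661, minus strand: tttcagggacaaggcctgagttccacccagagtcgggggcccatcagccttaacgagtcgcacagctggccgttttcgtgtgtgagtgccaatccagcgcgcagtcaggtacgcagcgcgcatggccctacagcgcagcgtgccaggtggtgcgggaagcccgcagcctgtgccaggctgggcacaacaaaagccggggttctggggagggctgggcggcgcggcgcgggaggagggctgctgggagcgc
Timp3, chr10:86300162-86300411, plus strand: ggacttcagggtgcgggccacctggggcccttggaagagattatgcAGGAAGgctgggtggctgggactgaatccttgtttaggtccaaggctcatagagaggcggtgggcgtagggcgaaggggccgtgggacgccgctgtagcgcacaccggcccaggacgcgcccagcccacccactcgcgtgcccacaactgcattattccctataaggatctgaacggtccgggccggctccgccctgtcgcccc
Timp4, chr6:115252206-115252455, minus strand: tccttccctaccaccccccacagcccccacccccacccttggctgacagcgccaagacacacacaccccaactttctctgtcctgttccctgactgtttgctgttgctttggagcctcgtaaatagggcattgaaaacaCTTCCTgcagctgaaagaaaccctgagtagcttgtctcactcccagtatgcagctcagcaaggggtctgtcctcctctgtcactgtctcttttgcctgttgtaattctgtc
The Timp1 window held 2 such matches, from 175 to 170 and from 99 to 94 bases before the start. Timp3 held 1, from 204 to 199 bases before the start, Timp4 held 1 on the other strand, from 111 to 106, and the Timp2 window held none. The letters AGGAAG occur on either strand in 29.5% of all 32851 promoters of the same length. They occur in 11 of the 27 members, each counted once over all its promoters. The AP-1 letters TGANTCA, a pattern that includes the target of Fos and Jun proteins, did not occur in the window of any TIMP gene. The Timp2 and Timp3 windows were 68.0 and 65.6% G and C and the Timp1 and Timp4 windows 54.4 and 53.6%, beside a median of 52.4% over all promoters. A match is a description of the letters and not evidence of binding.

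Timp1, on chromosome X (20870166-20874737), encodes a secreted inhibitor that binds many MMPs, including the precursor of Mmp9, and that acts on cells as a growth factor. Its values were 7.27, 7.21 and 7.26 on the Ctr arrays, 7.47, 7.48 and 7.65 on the C2 arrays and 5.84, 5.37 and 5.36 on the C4 arrays. All 3 C4 arrays lay below all Ctr and C2 arrays, and the C2 arrays lay above the Ctr arrays without overlap. Timp1 averaged 5.52 ± 0.27 in C4 and 7.25 ± 0.034 in Ctr (mean ± SD, n = 3 each), a difference of -1.73 (SE 0.13, adjusted p = 0.000944 by limma) or 3.31-fold. Against C2 the difference of C4 was -2.01 (SE 0.13, adjusted p = 0.000496), or 4.03-fold. The C2 arrays exceeded Ctr by 0.29 (95% interval -0.03 to 0.60, adjusted p = 0.567), which was not called. The differences of Timp1 from Ctr thus had opposite signs in C2 and C4, though only that of C4 was called. The comparison of C4 with C2 tests whether these differences are equal, and cannot show that their signs are opposite. Both calls of Timp1 held in all 18 alternatives of the fit, the normalisation and the arrays. Timp1, like Adamts1 and Adamtsl3, was read by a single probe set, so no other probe set could be compared.

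Timp3, on chromosome 10 (86300412-86349505), encodes an inhibitor that stays bound to the matrix and also blocks ADAM and ADAMTS proteases. It rose in C4 on each of its 4 probe sets and was not called in C2 on any of them. The values of the representative probe set were 6.96, 6.74 and 6.74 in Ctr, 6.83, 6.75 and 6.74 in C2 and 8.01, 8.07 and 7.92 in C4, with 1 value shared by 3 of the Ctr and C2 arrays. All C4 arrays were above all others, and the Ctr and C2 arrays overlapped. Timp3 averaged 8.0 ± 0.073 in C4 and 6.82 ± 0.12 in Ctr (mean ± SD, n = 3 each), a difference of 1.18 (SE 0.069, adjusted p = 0.000363) or 2.27-fold. The other Timp3 probe sets differed by 1.51 (1419089_at, adjusted p = 0.00139), 1.27 (1419088_at, adjusted p = 0.00176) and 0.95 (1449334_at, adjusted p = 0.0265). Outside C4 the last 2 were close to the bound of 4. The means in Ctr and C2 were 4.01 and 3.84 for 1419088_at, with 1 value shared by 4 of these arrays. They were 4.18 and 3.98 for 1449334_at, with 1 value shared by 3. The call of 1449334_at was lost when any 1 of the 6 arrays of C4 or Ctr was left out (highest adjusted p = 0.0853, without C4 replicate 3), and the calls of the other Timp3 probe sets held in every alternative. In C2 the Timp3 differences from Ctr ranged over -0.04, 0.12, -0.16 and -0.20 with adjusted p between 0.735 and 1. C4 against C2 gave 1.22 on the representative probe set (adjusted p = 0.000268) and 1.16 to 1.44 on the others, of which 1449334_at lost its call without C2 replicate 1, C2 replicate 2 or C4 replicate 3.

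Timp4, on chromosome 6 (115244444-115252205), encodes the TIMP best known from brain and heart. It rose in C2 by more than in C4. The values were 9.59, 9.68 and 9.67 in Ctr, 10.28, 10.13 and 10.16 in C2 and 9.91, 9.86 and 9.82 in C4. The 3 conditions did not overlap, with C2 highest and Ctr lowest. Timp4 averaged 10.19 ± 0.079 in C2 and 9.65 ± 0.050 in Ctr (mean ± SD, n = 3 each), a difference of 0.55 (SE 0.047, adjusted p = 0.00626) or 1.46-fold. C4 against Ctr gave 0.22 (SE 0.047, adjusted p = 0.0464), a call that held in 3 of 18 alternatives and was lost without any single array other than C2 replicate 1. C4 against C2 gave -0.33 (adjusted p = 0.0105). The second probe set (1450974_at) had the same order: 8.22, 8.28 and 8.15 in Ctr, 8.87, 8.85 and 9.04 in C2 and 8.54, 8.68 and 8.53 in C4. On that probe set the differences were 0.71 in C2 (adjusted p = 0.00904) and 0.37 in C4 (adjusted p = 0.0275), and -0.34 between C4 and C2 (adjusted p = 0.0404). The call of 0.37 was lost without any single array other than C2 replicates 2 and 3, and that of -0.34 without any other than C4 replicate 2.

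Timp2, on chromosome 11 (118301061-118355411), encodes an inhibitor that also carries the Mmp2 precursor to Mmp14 for activation. Its representative probe set had values of 9.58, 9.64 and 9.70 in Ctr, 9.50, 9.64 and 9.73 in C2 and 9.82, 10.01 and 9.90 in C4. The C4 arrays were above all others, but the difference from Ctr of 0.27 (95% interval 0.10 to 0.44, adjusted p = 0.0998) was not called. A filter on dim probe sets made it a call (adjusted p = 0.0219 by limma). That filter also called the difference of 0.28 between C4 and C2 (adjusted p = 0.0197 by limma, 0.0953 without it). Centring the arrays on the median called C4 against C2 as well (0.26, adjusted p = 0.0323 by limma). Without such alternatives, only 1433662_s_at of the 6 Timp2 probe sets was called. It averaged 7.94 ± 0.0063 in C2 and 8.18 ± 0.060 in Ctr (mean ± SD, n = 3 each), a difference of -0.23 (adjusted p = 0.0327) that was lost without 7 of the 9 single arrays, the 2 exceptions being Ctr replicate 2 and C4 replicate 2. Between C4 and C2 it differed by 0.30 (adjusted p = 0.00539). The suffix of 1433662_s_at marks probes that may bind to more than 1 transcript. The other probe sets differed by 0.23 (1460287_at, adjusted p = 0.0816), 0.23 (1420924_at, adjusted p = 0.632) and 0.07 (1450040_at, adjusted p = 0.645) in C4, and 1437081_at was at the lowest value throughout. The difference of 1460287_at was called with the filter on dim probe sets (adjusted p = 0.0233 by limma). It was also called without C4 replicate 3 (0.29, adjusted p = 0.041 by limma).

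**Figure D2:**
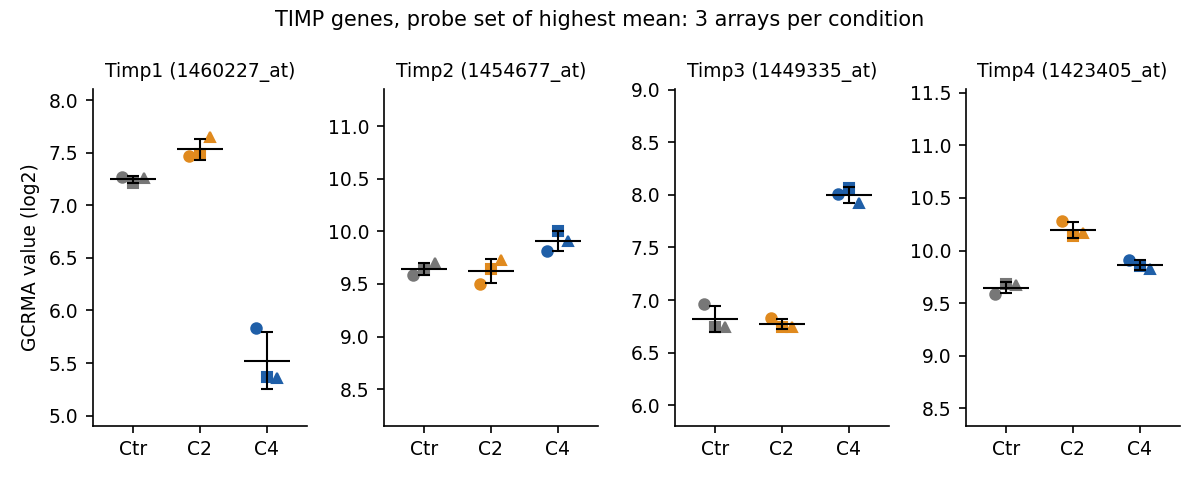
GCRMA values (log2, vertical axis, each spanning 3.2 units) of the 4 TIMP genes on the arrays of Ctr, C2 and C4, with circles, squares and triangles for replicates 1, 2 and 3, a horizontal bar at the mean and error bars of 1 SD (n = 3). Timp1 lies at 5.36 to 5.84 in C4, below its other arrays, whereas Timp3 lies at 7.92 to 8.07 in C4, above its other arrays, and Timp4 is highest in C2.

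**Figure D3:**
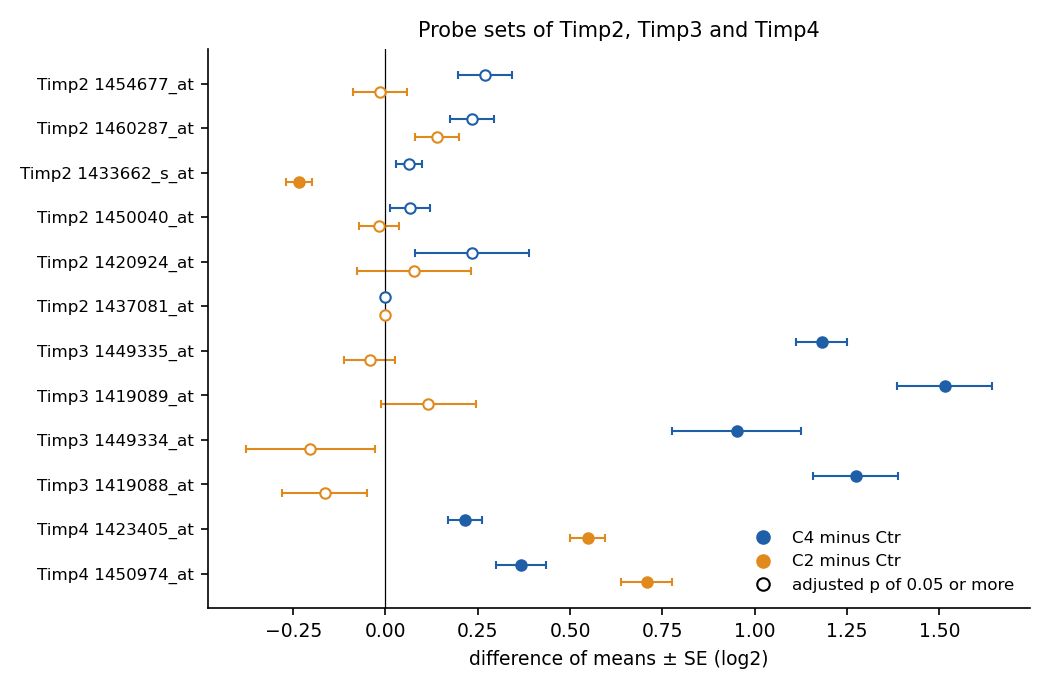
Difference from Ctr (log2, horizontal axis, error bars of 1 SE) of each probe set of Timp2, Timp3 and Timp4, in blue for C4 and in orange for C2, with open circles where the adjusted p was 0.05 or more. The 4 Timp3 probe sets are at 0.95 to 1.51 in C4 and near 0 in C2, and both Timp4 probe sets are further to the right in C2 than in C4.

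Of the 4 TIMP genes, 3 lie inside synapsin genes, which encode proteins of synaptic vesicles. By the RefSeq annotation of GRCm38.p6, Timp1 lies within Syn1 on the opposite strand, from 9.7 to 14.2 kb into a gene of 60.4 kb, counted from the end with the lower coordinate. Timp3 lies within Syn3 (450.2 kb), and Timp4 lies within Syn2 (147.7 kb) on the opposite strand. Timp2 lies in no synapsin gene. Timp1 and Timp3 were above the floor and called. Syn1 and Syn3 were near the floor, where a difference is hardly measured, and were not called in any comparison. For Syn2, 3 of 6 probe sets rose in C4 against Ctr (3.78% of all rose), by 0.74, 0.65 and 0.48 (adjusted p = 0.00355, 0.0131 and 0.0245). The representative one differed by 0.20 (adjusted p = 0.35), and 1458105_at and 1440762_at were near the floor. In C2 against Ctr, 0 of 6 Syn2 probe sets were called by limma (1.70% of all were called), and 1435511_at stood at -0.34 (adjusted p = 0.127). Whether the TIMP and synapsin levels are linked was not tested.

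Among the proteases, Adamts1 and Adamts4 fell in C4, and no protease gene rose. The ADAMTS-like gene Adamtsl3, which encodes no protease, fell as well. Adamts1, on chromosome 16 (85793827-85803113), encodes a protease of aggrecan and versican. Its values were 7.72, 7.93 and 7.84 in Ctr, 7.31, 7.28 and 7.44 in C2 and 7.06, 7.22 and 7.19 in C4. The arrays of the 3 conditions did not overlap, and their order was that of the addition interval, with Ctr highest. Adamts1 averaged 7.16 ± 0.084 in C4 and 7.83 ± 0.11 in Ctr (mean ± SD, n = 3 each), a difference of -0.67 (SE 0.073, adjusted p = 0.00351) or 1.59-fold. The C4 call held in all 18 alternatives that kept the threshold, but the difference did not reach the study's log2 threshold of 1. The difference of C2 was -0.49 (SE 0.073, adjusted p = 0.0331). That call was lost without 7 of the 9 single arrays (highest adjusted p = 0.11, without C2 replicate 2), the 2 exceptions being Ctr replicate 1 and C4 replicate 1. C4 and C2 differed by -0.18 (95% interval -0.36 to -0.01, adjusted p = 0.322), which was not called.

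Adamts4, on chromosome 1 (171250129-171262267), encodes an aggrecanase that also cuts brevican. The values were 8.38, 8.67 and 8.61 in Ctr, 8.27, 8.17 and 8.21 in C2 and 8.16, 8.07 and 8.27 in C4. All C4 and C2 arrays lay below all Ctr arrays, and C2 and C4 overlapped. The difference was -0.39 in C4 (SE 0.085, adjusted p = 0.0483) and -0.34 in C2 (SE 0.085, adjusted p = 0.153). That of C2 was called with a filter on dim probe sets (adjusted p = 0.0361 by limma). Centring the arrays on the median called it too (-0.37, adjusted p = 0.0312 by limma). The second probe set (1455965_at) averaged 7.05 ± 0.16 in C4 and 7.46 ± 0.055 in Ctr (mean ± SD, n = 3 each), a difference of -0.41 (adjusted p = 0.0289). The C4 calls of the 2 probe sets held in 5 of 18 and 7 of 17 alternatives. The first was lost without any single array other than Ctr replicate 1, and the second without any other than C4 replicates 1 and 3.

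The remaining ADAMTS genes above the floor were not called in any comparison. Adamts9, a protease of versican on chromosome 6, had values of 7.21, 7.43 and 7.25 in Ctr, 6.65, 7.08 and 7.21 in C2 and 6.93, 7.13 and 7.54 in C4. The 3 conditions overlapped, and C4 differed from Ctr by -0.10 (95% interval -0.58 to 0.38). Adamts6, on chromosome 13, averaged 7.08 ± 0.18 in C4 and 7.12 ± 0.024 in Ctr, and its 4 arrays at exactly 7.09 included all 3 of C2. Its second probe set (1457548_at) was higher on all C2 arrays than on all others, with 5.74, 5.74 and 5.46 in Ctr, 6.22, 5.84 and 6.08 in C2 and 5.74, 5.68 and 5.62 in C4. The C2 difference of that probe set, 0.40, was not called (adjusted p = 0.217). Without C4 replicate 3, which stood at 7.29, the representative probe set of Adamts6 was called in C4 against Ctr (adjusted p = 0.0155) and in C4 against C2 (adjusted p = 0.0324). Adamts12, whose protein cuts cartilage oligomeric matrix protein, differed by 0.25 in C4 (95% interval -0.23 to 0.73). Adamts10, which binds fibrillin, differed by -0.18 (95% interval -0.57 to 0.21), with 5 of its 9 arrays at 4.52.

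Adamtsl3, on chromosome 7 (82335399-82614450), encodes a matrix protein without a protease domain, also called punctin-2, and was the member with the largest decrease in C4 against Ctr. Its values were 6.57, 6.53 and 6.84 in Ctr, 6.19, 5.91 and 6.36 in C2 and 4.58, 4.85 and 5.21 in C4. The conditions did not overlap, and C4 lay far below both others. Adamtsl3 averaged 4.88 ± 0.32 in C4 and 6.65 ± 0.17 in Ctr (mean ± SD, n = 3 each), a difference of -1.76 (SE 0.19, adjusted p = 0.00351) or 3.40-fold. The difference of C2 was -0.49 (95% interval -0.95 to -0.03, adjusted p = 0.438) and was not called. C4 against C2 gave -1.27 (adjusted p = 0.0133), a call lost without C2 replicate 1 (adjusted p = 0.055) and without C4 replicate 2 (adjusted p = 0.0505). The other ADAMTS-like genes, Adamtsl1, Adamtsl2, Adamtsl4 and Adamtsl5, were near the floor, with no value above 2.93.

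**Figure D4:**
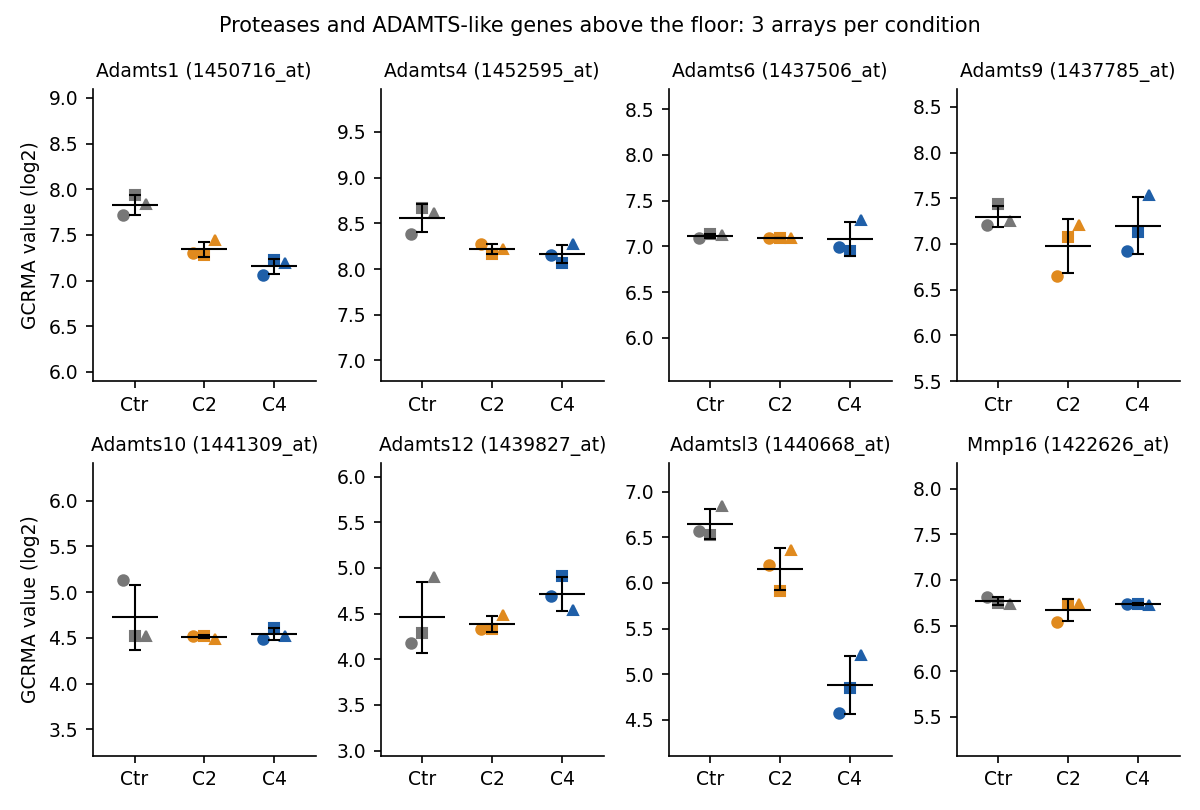
GCRMA values (log2, vertical axis, each spanning 3.2 units) of the 6 ADAMTS genes, of Adamtsl3 and of Mmp16 on the arrays of Ctr, C2 and C4, with circles, squares and triangles for replicates 1, 2 and 3, a horizontal bar at the mean and error bars of 1 SD (n = 3). Adamtsl3 lies at 4.58 to 5.21 in C4, Adamts1 and Adamts4 are lower in C4 than in Ctr, and the other genes overlap between C4 and Ctr.

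Nearly all MMP genes were near the floor in these cultures, and no MMP probe set was called by limma in any comparison (0 of 29 in each, with 0, 0 and 1 at an unadjusted p under 0.05 in C4 against Ctr, C2 against Ctr and C4 against C2). The exception to the low level was Mmp16, on chromosome 4, which encodes a membrane-type MMP known from brain. Its representative probe set had values of 6.82, 6.74 and 6.74 in Ctr, 6.54, 6.74 and 6.74 in C2 and 6.74, 6.74 and 6.73 in C4. A single value, 6.74, was shared by 5 of the 9 arrays, of which 2 were in C2 and 2 in C4. The second probe set (1437568_at) had 6.52, 6.46 and 6.51 in Ctr, 5.93, 6.37 and 6.44 in C2 and 6.63, 6.80 and 6.51 in C4. On it all C4 arrays exceeded all C2 arrays, by a mean of 0.40 (95% interval 0.06 to 0.74, adjusted p = 0.247), which was not called.

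The collagenases (Mmp1a, Mmp1b, Mmp8 and Mmp13) did not vary at all, and neither did Mmp7, Mmp11, Mmp12, Mmp20 and Mmp23. The gelatinases Mmp2 and Mmp9, the stromelysins Mmp3 and Mmp10, Mmp19 and the membrane-type Mmp14, Mmp17 and Mmp24 left their commonest value on some arrays only, and none of the 26 MMP probe sets near the floor exceeded 3.78. Mmp14, which activates the Mmp2 precursor, had 3.21 on all Ctr arrays and 3.52, 3.21 and 3.21 in C4. Among the ADAMTS genes near the floor, Adamts3, Adamts8, Adamts15 and Adamts19 did not vary, Adamts16, Adamts18 and Adamts20 had values no higher than 2.57, and Adamts5, an aggrecanase, reached 4.10 on 1 C4 array. Adamts7 had 3.10, 3.18 and 3.25 in Ctr, 2.39, 3.18 and 2.81 in C2 and 3.18, 3.73 and 3.43 in C4, and was not called (adjusted p = 0.216 for C4 against C2). In total, 16 genes had 1 value on all 9 arrays in each of their probe sets, as had 30 of the 78 probe sets. For these genes the arrays give no measure of a difference.

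Of the MMP genes near the floor, 9 lie side by side in 427.1 kb of chromosome 9 (7272514-7699585). The sequences of 27 bases around the AP-1 letters in the 250 bases before their start in the promoter table are shown, with the match TGANTCA in capitals. They are shown because AP-1 sites are the classical link between growth factor signalling and MMP transcription. For Mmp12 that start and the sequence shown lie inside the RefSeq gene span (7344397-7360461).
Mmp13, chr9:7272469-7272495, plus strand: cccaaagtggTGACTCAtcactatcat
Mmp12, chr9:7347320-7347346, plus strand: acatcaacagTGAGTCAgatagaggat
Mmp1b, chr9:7388103-7388129, minus strand: ttacaaagccTGAGTCAtatagcctct
Mmp3, chr9:7445766-7445792, plus strand: gaagcaattaTGAGTCAgttttcgggt
Mmp1a, chr9:7464058-7464084, plus strand: ttgtcaaccaTGAGTCAcatagcctct
Mmp10, chr9:7502269-7502295, plus strand: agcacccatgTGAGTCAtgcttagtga
Mmp20, chr9:7628126-7628152, plus strand: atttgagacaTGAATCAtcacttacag
Mmp7, chr9:7692017-7692043, plus strand: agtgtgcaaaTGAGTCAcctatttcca
The letters TGANTCA, which read the same on both strands, were found in 8 of these 9 genes and in 8 of the 27 members with a promoter. They occur in 6.75% of all 32851 promoters. That share counts single promoters, whereas members were counted by gene over 30 promoters. The 8 genes are neighbours and not independent cases, so the counts are a description. At the open position N the Mmp20 match has A, where the others have G or C. The other member genes with a promoter, which include all TIMP and ADAMTS members in the table, had none in this window. All 8 genes with the letters were near the floor in Ctr, C2 and C4.

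Genes that act on MMPs and the substrates of ADAMTS proteases were examined beside the members. Over all genes, 9.20% were called in C4 against Ctr, 2.52% in C2 against Ctr and 7.78% in C4 against C2. Of 13 measured activators, inducers and other inhibitors of MMPs, 0 rose and 2 fell in C4 against Ctr. A2m, a broad protease trap, had values of 8.75, 8.76 and 8.86 in Ctr, 8.25, 8.37 and 8.33 in C2 and 8.34, 8.39 and 8.38 in C4. All C2 and C4 arrays of A2m were below all Ctr arrays, with differences of -0.48 in C2 (adjusted p = 0.00626) and -0.42 in C4 (adjusted p = 0.00218). Pcsk6, a proprotein convertase near the floor, differed by -0.88 in C4 (adjusted p = 0.00854). In C2 against Ctr, 0 rose and 2 fell, A2m and Bsg, an inducer of MMPs, which differed by -0.39 (adjusted p = 0.0204). In C4 against C2, 2 rose and 0 fell: Bsg by 0.25 (adjusted p = 0.036) and Reck by 1.07 (adjusted p = 0.00574). Reck, a membrane-anchored MMP inhibitor, had values of 5.42, 5.26 and 5.42 in Ctr, 4.73, 5.13 and 4.68 in C2 and 6.0, 5.94 and 5.80 in C4. Its 3 conditions did not overlap, and neither difference from Ctr was called (0.55 in C4, adjusted p = 0.0619, and -0.52 in C2, adjusted p = 0.142).

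Of 16 lecticans, link proteins and partners, 2 rose and 1 fell in C4 against Ctr: Bcan by 0.35 (adjusted p = 0.0311) and Ncan by 0.38 (adjusted p = 0.00419), which encode brevican and neurocan, and the matrix glycoprotein gene Tnc by -0.72 (adjusted p = 0.00176). In C2 against Ctr 0 of the 16 were called by limma (3 at an unadjusted p under 0.05). In C4 against C2, Ncan (0.30, adjusted p = 0.0116) and Vcan, which encodes versican (0.88, adjusted p = 0.00605), rose, and Tnc fell (-0.70, adjusted p = 0.00206). Of the lectican genes, Bcan and Ncan were thus higher in C4 than in Ctr. Vcan was not called there (0.36, adjusted p = 0.132 by limma), and Acan was near the floor. Of the lectican proteases above the floor, Adamts1 and Adamts4 were lower in C4 than in Ctr, and Adamts9 was not called. Whether these RNA levels are linked was not tested. Of 11 membrane-bound ADAM proteases, 0 rose and 2 fell in C4 against Ctr: Adam10 by -0.46 (adjusted p = 0.00372) and Adam19 by -0.53 (adjusted p = 0.00758). The same genes fell in C4 against C2 (-0.30, adjusted p = 0.0193, and -0.57, adjusted p = 0.00631), and 0 of 11 were called in C2 against Ctr (2 at an unadjusted p under 0.05). Medians of all list members were 0 for the MMP regulators, 0 for the lecticans and partners and -0.03 for the ADAMs in C4 against Ctr, beside 0 over all genes.

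The cell type markers of the label were present: the neural stem cell genes Nes, Sox2, Vim, Fabp7 and Pax6 were all above the floor. Of these 5, Pax6 (0.57, adjusted p = 0.00241) and Fabp7 (0.34, adjusted p = 0.000665) rose and Vim (-0.40, adjusted p = 0.0256) fell in C4 against Ctr, and 0 were called by limma in C2 (4 at an unadjusted p under 0.05). Markers of other cells moved with C4 and with C2, and their part in the differences of Timp1, Timp3, Timp4, Adamts1, Adamts4 and Adamtsl3 was not tested. Of 4 astrocyte markers, 3 rose in C4 against Ctr (Aldh1l1, Aqp4 and S100b) with Gfap near the floor, and their summed linear level ranged over 478 to 504 in Ctr, 417 to 465 in C2 and 974 to 1038 in C4. In C2 against Ctr, Aldh1l1 fell (-0.76, adjusted p = 0.0107 by limma), and the other astrocyte markers were not called and differed in sign. Aqp4 stood at -0.45 (adjusted p = 0.12), S100b at 0.57 (adjusted p = 0.0845) and Gfap at 0.30 (adjusted p = 0.735). Of 6 oligodendrocyte lineage markers, 4 rose in C4 and Mbp was near the floor, with sums, to which Olig1 and Olig2 gave most, of 18110 to 19390 in Ctr, 18070 to 19080 in C2 and 21340 to 22250 in C4. Gpr17, a receptor of oligodendrocyte precursors in the same list, rose by 2.70 in C4 (adjusted p = 0.00171) and fell in C2 (-1.71, adjusted p = 0.0272), where its mean of 3.12 was under 4. The paper reports Gpr17 as upregulated in both C4 and C2 by quantitative RT-PCR. In C2 the array value thus went the other way. Of 6 markers of microglia and macrophages, Cd68 alone was above the floor and fell by 2.72 in C4 against Ctr (adjusted p = 8.43e-05), while Aif1, Itgam, Csf1r, Cx3cr1 and Ptprc were near the floor, and the sums were 236 to 287 in Ctr, 238 to 249 in C2 and 65.6 to 71.8 in C4. Of 4 markers of neuroblasts and neurons, Cd24a rose in C4 (0.47, adjusted p = 0.00176) and fell in C2 (-0.46, adjusted p = 0.00734), and Dcx, Tubb3 and Rbfox3 were near the floor. The markers of endothelial cells (5 of 5), pericytes and fibroblasts (6 of 6) and olfactory ensheathing cells (3 of 3 measured) were all near the floor in the 3 conditions, and 0 of these 14 were called by limma (0 at an unadjusted p under 0.05).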

How the data were processed

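Total RNA of aOBSC neurospheres was labelled with biotin and hybridised to 9 arrays. The authors produced the log2 values with GCRMA, which corrects background by probe sequence, normalises across arrays by quantiles and summarises the probes of a set, and were used as deposited. The version of GCRMA is not given in the sources used here. Of 45101 probe sets, 64 control sets were removed and 45037 tested without a filter on low values.

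Symbols came from the platform annotation, in which 34945 probe sets have 1 symbol, 932 several and 9160 none. All 78 member probe sets matched RefSeq (GRCm38.p6) by Entrez number. One mean per condition was fitted with limma 3.58.1 in R 4.3.3, with an intensity trend in the variance prior (6 residual and 0.574 prior degrees of freedom). Intervals are 95% intervals of that fit. The script was tested on simulated data. The study compared conditions by a log2 threshold of 1, with a false discovery rate under 0.01 for some selections, from a test that is not given in the sources used here, so limma was used, and both thresholds together were an alternative. The other alternatives changed the variance prior, the arrays fitted, the replicate block, the filter, the normalisation and the handling of probe sets, or left out single arrays.

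Members and lists were chosen with earlier results of these data known. Named members are those called in any comparison, all TIMPs, and genes with a condition mean of at least 4. From the other lists, up to 4 called genes per comparison are named, and Mmp14, Adamts5, Adamts7 and the synapsin genes were named after their values were seen.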

Additional observations from a re-analysis of the deposited data

Results flagged for a closer look

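The C4 and C2 differences from Ctr of 9 member probe sets differed from each other in the limma comparison of C4 with C2. Timp1 differed by -2.01 between C4 and C2 (adjusted p = 0.000496), with -1.73 in C4 and 0.29 in C2 against the shared Ctr arrays. The representative probe set of Timp3 differed by 1.22, and its other probe sets by 1.40 (1419089_at), 1.16 (1449334_at) and 1.44 (1419088_at), with C2 differences from Ctr between -0.20 and 0.12. Adamtsl3 differed by -1.27 (adjusted p = 0.0133), with -1.76 in C4 and -0.49 in C2. Timp4 differed by -0.33 and on its second probe set (1450974_at) by -0.34, with the larger increase in C2. The Timp2 probe set 1433662_s_at differed by 0.30, with 0.06 in C4 and -0.23 in C2.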

How the results depend on the processing

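No member changed direction with a call under any alternative, and of 1437 values of named members under alternatives, 1312 stayed on their side of the threshold, 115 lost and 10 gained a call. With 11, 4 and 9 member probe sets called in C4 against Ctr, C2 against Ctr and C4 against C2, robust variance priors left 6, 0 and 6 (1386, 45 and 1178 of all probe sets, against 2833, 767 and 2363), and unadjusted p-values under 0.05 numbered 13, 7 and 16. Fitting only the arrays of the conditions compared left 7, 2 and 6 (1618, 371 and 1404 of all). A difference of at least 1 with an adjusted p under 0.01 left 5, 0 and 4 (230, 11 and 224 of all), and averaging the probe sets of a gene called 6, 2 and 4 genes (1912, 605 and 1752 of all). The filter on dim probe sets called 13, 5 and 10 members and 4697, 1825 and 3908 of all probe sets. Leaving out probe sets that may cross-hybridise left 9, 3 and 8 (1720, 374 and 1466 of all). Leaving out 1 array in turn gave 6 to 9 calls in C4 against Ctr (1818 to 2585 of all). In C2 against Ctr it gave 2 to 3 (323 to 584 of all). In C4 against C2 it gave 6 to 9 (1485 to 2091 of all). The member count of C4 against Ctr fell to 6 without Ctr replicate 2, Ctr replicate 3 or C4 replicate 2 (1818, 2219 and 1953 of all). It fell to 7 without Ctr replicate 1 or C4 replicate 1 (1962 and 2585 of all). That of C2 against Ctr fell to 2 without Ctr replicate 3, C2 replicates 1 or 2, or C4 replicate 3 (516, 361, 351 and 559 of all). Of the calls, 6 of 11, 0 of 4 and 4 of 9 held in every alternative that kept the threshold: in C4 against Ctr those of Timp1, Adamts1, Adamtsl3 and 3 probe sets of Timp3, and in C4 against C2 those of Timp1 and the same 3 of Timp3. The representative Timp4 probe set kept its C2 call in 17 of 18, the exception being robust priors (adjusted p = 0.0615). The cause of these losses was not tested.

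With the replicate number as a block, 7, 1 and 7 member probe sets were called (1996, 237 and 1634 of all). Arrays with the same number shared little beyond it: their deviations from the condition means correlated by -0.042 to 0.126 over 18277 probe sets, so the numbers were not taken as pairs. Signal limits what could be detected near the floor, where 52 of the 78 member probe sets lay, 30 of them with 1 value on all arrays.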
